A study of Mus musculus with 22 samples.

Results

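Col1a1, Col1a2, Col3a1, Fn1 and Sparc were followed across a mouse series on the 3′ end processing factor PCF11. Col1a1 and Col1a2 encode the chains of type I collagen, Col3a1 encodes type III collagen, Fn1 encodes fibronectin, and Sparc encodes a collagen-binding glycoprotein of the extracellular matrix. The genes were taken as 5 stranded windows on the mm9 genome, which held 469 of the 612268 poly(A) site positions listed in the series and 252337 of its 59113336 reads. They were not chosen from a threshold on measured values.

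The 20 libraries of 10 groups with positions were made with 3′READS, which sequences the fragment beside the poly(A) tail and counts reads at each RNA 3′ end. Each of these groups had 2 libraries, with 1887532 to 4432717 reads per library. C2C12, a mouse myoblast line, was sampled after siPcf11 (an siRNA against Pcf11) and untreated, as total RNA and as newly made RNA, which was marked with 50 µM 4-thiouridine (4sU) given to the cells for 1 h. C2C12 was also sampled in libraries titled diff and pro, taken here as differentiated and proliferating cells of the differentiation experiment; both are labelled untreated, and the time in differentiation is not given in the sources used here. NIH3T3, a fibroblast line, was sampled after siPcf11 and untreated. 4T1, a mammary carcinoma line, was sampled as Pcf11-IPAKO, as labelled, and untreated, and whether the IPAKO cells are 1 clone or a pool is not given in the sources used here. 3T3-L1 preadipocytes were sampled by RNA-seq, with 1 library labelled siPcf11 and 1 untreated control library. All samples are labelled strain C57BL/6, no control siRNA is named, and the sources used here do not say whether the 2 libraries of a group come from different cultures. The p-values therefore reflect the spread between libraries alone, and that spread may be technical.

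Fibrillar collagens are secreted as procollagen chains that are modified and folded in the endoplasmic reticulum, cut by proteases outside the cell, and assembled into cross-linked fibrils. Type I collagen contains α1 and α2 chains, while type III collagen is a homotrimer of α1 chains. Fibronectin binds integrins and collagen and is assembled by cells into a fibrillar matrix that guides collagen deposition. Sparc binds collagen and affects fibril assembly. Fibroblasts are the best known source of this matrix, and myogenic cells also make it.

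Promoters of 3 of the 5 genes were matched in the RefSeq table of GRCm38.p6 and are shown because all 5 genes were higher in differentiated C2C12 cells; Col1a1 and Fn1 were not in the table. Each run holds 300 bases, printed 5′ to 3′ on the gene's strand. Capitals mark matches on either strand, none of which overlapped. The first motif searched was CCAAT, bound by NF-Y. The next was the TATA box form TATAAA. The last was the AP-1 motif TGANTCA. The runs are chr6:4505368-4505667 (+) for Col1a2, chr1:45311288-45311587 (+) for Col3a1 and chr11:55420031-55420330 (-) for Sparc.
Col1a2: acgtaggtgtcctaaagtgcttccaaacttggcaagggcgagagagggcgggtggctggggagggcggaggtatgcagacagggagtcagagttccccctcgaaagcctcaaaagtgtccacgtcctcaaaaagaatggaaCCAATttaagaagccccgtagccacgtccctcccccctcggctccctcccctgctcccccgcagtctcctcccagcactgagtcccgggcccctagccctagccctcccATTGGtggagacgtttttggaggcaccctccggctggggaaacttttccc
Col3a1: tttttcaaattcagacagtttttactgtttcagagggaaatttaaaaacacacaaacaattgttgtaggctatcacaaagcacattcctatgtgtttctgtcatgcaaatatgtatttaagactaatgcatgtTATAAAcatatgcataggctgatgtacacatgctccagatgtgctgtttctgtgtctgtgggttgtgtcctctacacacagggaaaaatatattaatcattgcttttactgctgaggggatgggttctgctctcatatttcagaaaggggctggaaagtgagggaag
Sparc: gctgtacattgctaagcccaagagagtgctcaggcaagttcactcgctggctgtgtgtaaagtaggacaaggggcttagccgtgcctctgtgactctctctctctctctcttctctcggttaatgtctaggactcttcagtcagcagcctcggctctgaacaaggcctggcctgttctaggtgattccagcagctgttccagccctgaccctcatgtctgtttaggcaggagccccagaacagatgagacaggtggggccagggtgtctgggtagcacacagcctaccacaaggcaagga
The Col1a2 promoter held 2 CCAAT matches, 1 on each strand. Counted with the gene's start as 1, their first bases lay at -109 (+ strand) and 1 (- strand). Col3a1 held 1 TATAAA match, with its first base at -117. Whether these matches act as promoter elements was not tested. No match to these letters was in the Sparc window. Among 32851 promoters of the same length, 37.4% held the CCAAT motif, 13.6% held the TATA motif and 7.81% held the AP-1 motif. The GC content was 61.0% for Col1a2, 37.7% for Col3a1 and 55.3% for Sparc.

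Levels are given first, as reads per 1000000 reads of the library (CPM) summed over a gene's window. A level in a bulk sample cannot tell fewer expressing cells from less RNA per cell. Type I collagen differed between cell lines and between states of C2C12. Col1a1 had 642 and 595 CPM in differentiated C2C12 libraries, against 81.3 and 89.0 CPM in proliferating ones. In NIH3T3 it had 477 and 553 CPM after siPcf11, against 542 and 580 CPM in controls. C2C12 total RNA held 64.1 and 53.4 CPM after siPcf11, against 72.8 and 69.1 CPM in controls. Differentiated C2C12 cells and NIH3T3 fibroblasts were thus the high groups and all other C2C12 groups were low. C2C12 4sU RNA had 48.1 and 42.5 CPM after siPcf11, against 49.5 and 52.0 CPM in controls. 4T1 had 2 reads in the Pcf11-IPAKO libraries and 1 read in the control libraries. In the order of Col1a1 means, the neighbouring NIH3T3 control and siPcf11 groups overlapped, as did both 4T1 groups; the other neighbours did not overlap.

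Col1a2, the partner chain, was highest in NIH3T3, with 348 and 400 CPM after siPcf11, against 476 and 428 CPM in controls. Differentiated C2C12 libraries had 248.8 and 321 CPM, against 101 and 102 CPM in proliferating ones. C2C12 total RNA had 50.3 and 73.3 CPM after siPcf11, against 62.3 and 72.3 CPM in controls. The siPcf11 and control groups of C2C12 overlapped. The 4sU libraries had 62.2 and 82.5 CPM after siPcf11, against 73.7 and 75.3 CPM in controls. 4T1 had no read in the Pcf11-IPAKO libraries and 1 read in the control libraries. All 4 C2C12 groups of the siRNA experiment followed each other in the order of means with overlapping ranges.

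Of the collagen genes followed here, Col3a1 had the highest 3′READS level in every C2C12 and NIH3T3 group. This level counts reads per end, which do not depend on transcript length. Differentiated C2C12 cells had 5866 and 6414 CPM, against 940 and 868 CPM in proliferating cells. NIH3T3 had 2387 and 1950 CPM after siPcf11, against 1342 and 1281 CPM in controls. C2C12 total RNA had 673 and 832 CPM after siPcf11, against 641 and 615 CPM in controls. In each of these pairs both libraries of the first-named group lay above both of the other. C2C12 4sU RNA had 834 and 761 CPM after siPcf11, against 475 and 479 CPM in controls, also without overlap. 4T1 had 6 reads, all in 1 library, in Pcf11-IPAKO cells and none in controls. Among neighbours in the order of Col3a1 means, the siPcf11 groups of 4sU and total RNA overlapped, as did both 4T1 groups.

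Fn1 was the only one of the 5 with over 100 CPM in every library. Differentiated C2C12 cells had 4501 and 5988 CPM, against 724 and 871 CPM in proliferating cells. NIH3T3 had 1475 and 1614 CPM after siPcf11, against 973 and 1025 CPM in controls. 4T1 had 362 and 336 CPM in Pcf11-IPAKO cells, against 493 and 300 CPM in controls. The differentiated C2C12 group was again the highest, and the 4T1 groups overlapped. C2C12 total RNA had 381 and 634 CPM after siPcf11, a wider spread than the 502 and 555 CPM of controls. C2C12 4sU RNA had 617 and 568 CPM after siPcf11, against 422 and 439 CPM in controls. From C2C12 control total RNA downward, neighbouring groups in the order of Fn1 means overlapped.

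Sparc had 2213 and 2736 CPM in differentiated C2C12 cells, against 970 and 841 CPM in proliferating cells. C2C12 total RNA had 690 and 846 CPM after siPcf11, against 892 and 826 CPM in controls. C2C12 4sU RNA had 893 and 879 CPM after siPcf11, against 708 CPM in each control library. Differentiated cells were the highest and 4T1 the lowest group. NIH3T3 had 1175 CPM in siPcf11 library 1 and 542 CPM in library 2, against 1197 and 1189 CPM in controls. 4T1 had 42.6 and 20.9 CPM in Pcf11-IPAKO cells, against 36.1 and 29.3 CPM in controls. NIH3T3 siPcf11 library 2 stood apart from its replicate, and groups from proliferating C2C12 down to C2C12 control 4sU RNA overlapped with their neighbours in the order of Sparc means.

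**Figure D1:**
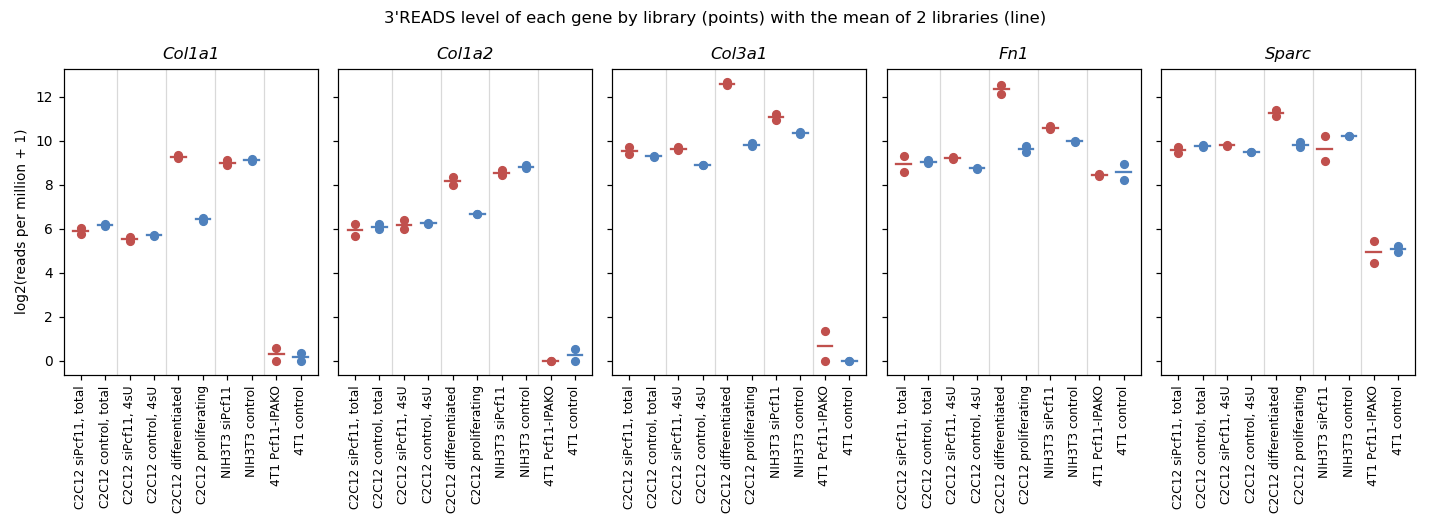
Level of each gene as log2(CPM + 1) in each 3′READS library, with a line at the mean of the 2 libraries of a group; red marks siPcf11, Pcf11-IPAKO or differentiated cells and blue the group each is set against. Differentiated C2C12 cells reached 5866 and 6414 CPM of Col3a1, and the collagens in 4T1 sat at or near 0.

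Summed over the 5 windows, 1.35% and 1.61% of all reads fell in these genes in differentiated C2C12 libraries, against 0.282% and 0.277% in proliferating ones. The share was 0.586% and 0.506% in NIH3T3 after siPcf11, against 0.453% and 0.4503% in controls. It was 0.0405% and 0.0359% in 4T1 Pcf11-IPAKO libraries, against 0.0530% and 0.0329% in controls.

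Differentiation of C2C12 was the comparison in which all 5 genes rose. Tests across the genome used edgeR's quasi-likelihood test with Benjamini-Hochberg adjustment over all features, where a feature is a gene's window or, elsewhere, a run of sites on one strand with gaps of at most 5 kb; a feature was called at an adjusted p under 0.05. In differentiated against proliferating cells, 62.3% of 11678 features were called and 32.6% were called higher, so the share of all 5 genes is to be read against that background. Col1a1 rose by 2.99 log2 units (SE 0.11, adjusted p = 1.2e-30) and Col3a1 by 2.90 (SE 0.10, adjusted p = 3.5e-32). Fn1 rose by 2.85 log2 units (SE 0.11, adjusted p = 7.1e-30), Col1a2 by 1.62 (SE 0.12, adjusted p = 3.5e-18) and Sparc by 1.58 (SE 0.10, adjusted p = 3.2e-20). The median change of the 5 was 2.85 log2 units, beside 0.02 over all features. The chains of type I collagen therefore had unequal fold changes; the difference between them was not tested.

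C2C12 cells given siPcf11 were compared with untreated cells in steady-state and newly made RNA. The level of Pcf11 was not analysed in these libraries. As no control siRNA is named, loss of Pcf11 and the siRNA treatment itself cannot be told apart. In total RNA, 51.5% of 11095 features were called, and 1 of the 5 genes was among them. Col3a1 rose by 0.43 log2 units (SE 0.11, adjusted p = 6.0e-04). The other 4 had changes of -0.11 (SE 0.17) for Col1a1, 0.06 (SE 0.17) for Col1a2, 0.11 (SE 0.12) for Fn1 and 0.01 (SE 0.11) for Sparc, with adjusted p from 0.436 to 0.969. The direction of Fn1 depended on the siPcf11 library kept: it stood at 0.53 log2 units without library 1 and at -0.19 without library 2. The median of the 5 was 0.06, beside -0.02 over all features.

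In 4sU RNA, 53.5% of 11095 features were called in either direction. Of the 5 genes, 3 were called, each higher. Among all features, 70.8% had a smaller absolute change than Col3a1, 56.6% than Fn1 and 48.4% than Sparc. Col3a1 rose by 1.05 log2 units (SE 0.11, adjusted p = 4.8e-16), Fn1 by 0.77 (SE 0.12, adjusted p = 5.9e-09) and Sparc by 0.63 (SE 0.11, adjusted p = 2.8e-07). Both type I collagen genes missed the threshold: Col1a1 differed by 0.14 (SE 0.18, adjusted p = 0.539) and Col1a2 by 0.26 (SE 0.17, adjusted p = 0.175). The median of the 5 was 0.63, beside 0.04 over all features. Scaling to library totals in place of TMM (the trimmed mean scaling of edgeR) moves all features by -0.30 log2 units here and turns both type I collagen values below 0, at -0.16 for Col1a1 and -0.04 for Col1a2.

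The response in 4sU RNA was set against that in total RNA as an interaction. It was called for 0.838% of 11095 features, and for 3 of the 5 genes, each with a larger response in 4sU RNA. The difference was 0.65 log2 units for Fn1 (SE 0.17, adjusted p = 0.024), 0.62 for Col3a1 (SE 0.16, adjusted p = 0.025) and 0.62 for Sparc (SE 0.16, adjusted p = 0.018). Col1a1 had a difference of 0.26 (SE 0.25, adjusted p = 0.762) and Col1a2 of 0.20 (SE 0.24, adjusted p = 0.811). None of the 5 was called with DESeq2's Wald test or size factors or with library totals. The median of the 5 was 0.62, beside 0.10 over all features. Calls were also lost when single libraries were left out: 2 genes were called without siPcf11 total RNA library 2, 1 without control 4sU library 1, and 0 without either siPcf11 4sU library, control 4sU library 2, either control total RNA library or siPcf11 total RNA library 1.

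Untreated C2C12 cells were compared between RNA fractions. In 4sU RNA against total RNA, 27.8% of 11095 features were called in either direction. Of the 5 genes, 4 were called, each lower in 4sU RNA. Among all features, 67.2% had a smaller absolute change than Col1a1, 60% than Col3a1, 49.4% than Fn1 and 47.6% than Sparc. Col1a1 fell by 0.56 log2 units (SE 0.17, adjusted p = 0.0072), Col3a1 by 0.47 (SE 0.11, adjusted p = 4.2e-04), Fn1 by 0.37 (SE 0.12, adjusted p = 0.0099) and Sparc by 0.36 (SE 0.11, adjusted p = 0.0081). Col1a2 had a difference of 0.07 (SE 0.16, adjusted p = 0.806). The median of the 5 was -0.37, beside -0.08 over all features. DESeq2's Wald test called 2 of the 5, and leaving out control 4sU library 1 or control total RNA library 1 also left 2 called, while 3 were called without either of the other control libraries. With library totals 3 were called, and Fn1 stood at -0.30 (adjusted p = 0.052).

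In NIH3T3, siPcf11 was set against untreated fibroblasts. The test called 0 of 13573 features (0%), while 2267 had an unadjusted p under 0.05 and DESeq2's Wald test called 339. Col3a1 had a difference of 0.74 log2 units (SE 0.20, adjusted p = 0.174) and Fn1 of 0.64 (SE 0.18, adjusted p = 0.183), and these were the 2 of the 5 with an unadjusted p under 0.05. Col1a1 had -0.11 (SE 0.19), Col1a2 -0.26 (SE 0.20) and Sparc -0.45 (SE 0.36), with adjusted p from 0.582 to 0.838; DESeq2 called 0 of the 5. The siPcf11 libraries differed from each other: Sparc stood at -1.16 log2 units without library 1 and at 0.01 without library 2. In the same order, Col3a1 stood at 0.55 and 0.90 log2 units and Fn1 at 0.67 and 0.60. Each of these fits left 1 siPcf11 library, so its spread came from the controls alone and no call is read from it.

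The response to siPcf11 in NIH3T3 was tested against that in C2C12 total RNA, where 6.68% of 17075 features were called and none of the 5 genes was; none of them had an unadjusted p under 0.05, and DESeq2's Wald test called 0. The differences ran from -0.57 log2 units for Sparc (SE 0.36, adjusted p = 0.438) to 0.42 for Fn1 (SE 0.32, adjusted p = 0.560). Without NIH3T3 siPcf11 library 1, which left 1 siPcf11 library of NIH3T3, Sparc differed by -1.27 log2 units.

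In 4T1, Pcf11-IPAKO against control called 4.17% of 10420 features. Only Fn1 and Sparc had enough reads to be tested, and neither was called. Fn1 had a difference of -0.12 log2 units (SE 0.33, adjusted p = 0.918) and Sparc of 0.03 (SE 0.42, adjusted p = 0.987). Neither had an unadjusted p under 0.05, and the direction of each turned when single libraries were left out.

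**Figure D2:**
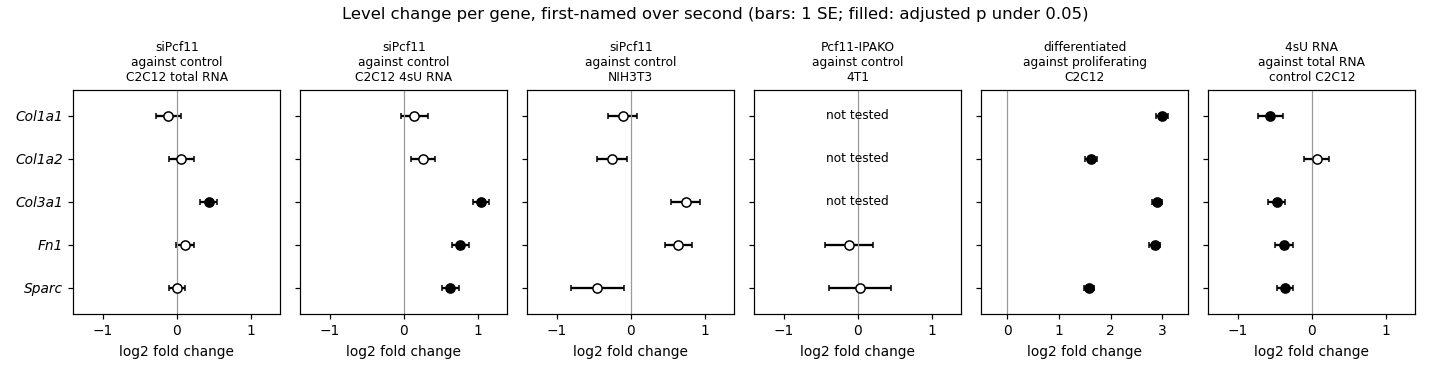
Log2 fold change of each gene with 1 SE in 6 comparisons, the first-named group over the second; filled points have an adjusted p under 0.05. All 5 genes rose in differentiated C2C12 cells, from 1.58 to 2.99, while only Col3a1 was called in C2C12 total RNA after siPcf11; the collagens were not tested in 4T1.

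Untreated cell lines differed in all 5 genes. C2C12 total RNA against NIH3T3 called 65.5% of 17075 features, with Col1a1 at -3.12 log2 units (SE 0.20, adjusted p = 1.4e-13) and Col1a2 at -2.88 (SE 0.23, adjusted p = 1.8e-11). Col3a1 stood at -1.20 (SE 0.19, adjusted p = 6.0e-06), Fn1 at -1.05 (SE 0.23, adjusted p = 1.9e-04) and Sparc at -0.61 (SE 0.26, adjusted p = 0.038). Sparc lost its call with library totals (-0.47, adjusted p = 0.096) and without either C2C12 library (adjusted p = 0.066 and 0.114). Cell line and any difference between the experiments' runs cannot be told apart here.

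4T1 against NIH3T3 called 64.5% of 17075 features, all 5 genes among them. Fn1 stood at -1.18 log2 units (SE 0.23, adjusted p = 5.8e-05) and Sparc at -5.05 (SE 0.31, adjusted p = 5.1e-14). For Col3a1, 0 reads in 4T1 controls against 8487 in NIH3T3 controls make it at least 2608-fold lower, taking 3 reads over the group as the limit that a count of 0 allows. Col1a1 had 1 read against 3636, a ratio of 3351 (95% exact counting interval 601 to 132411). Col1a2 had 1 read against 2920, a ratio of 2691 (interval 483 to 106344). Fibronectin RNA was thus present in 4T1 while RNA of Col1a1, Col1a2 and Col3a1 was near the limit of detection. Intervals cover counting error only.

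The 3′ ends of the genes were compared next. Positions within 24 nt of a stronger position were joined for this description, a choice made after the data were seen, because the same end was listed a few bases apart in different cell lines. Fn1, on the minus strand, had 1 dominant end at chr1:71632096, with 99.9% ± 0.02 of its reads in NIH3T3 after siPcf11 and 99.8% ± 0.1 in NIH3T3 controls (SD, n = 2 each). Sparc, also on the minus strand, ended at chr11:55208006 with a mean share of 98.7% to 99.5% in the C2C12 and NIH3T3 groups. Col3a1 ended mostly at chr1:45405865, with 99.0% ± 0.5 in NIH3T3 after siPcf11 and 99.2% ± 0.1 in NIH3T3 controls, and with group means from 91.0% to 95.8% in C2C12. Type I collagen was different: Col1a1 had 3 ends and Col1a2 had 5 ends holding at least 5% of the gene's reads in some group, where Fn1 and Sparc had 1 each and Col3a1 had 2. The mm9 gene annotation was not used here, so ends are given by position and not by exon or intron.

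The main ends of Col1a2 differed between C2C12 and NIH3T3 libraries. In C2C12, 69.98% to 80.7% of reads (group means) were at chr6:4491535, and 8.17% to 21.0% at an end 522 nt upstream. In NIH3T3 the chr6:4491535 end held 10.4% ± 1.0 after siPcf11 and 11.1% ± 0.4 in controls (SD, n = 2 each). NIH3T3 used ends 522 and 831 nt upstream for most of its reads, together with an end 20767 nt upstream that held 6.44% ± 0.52 after siPcf11 and 4.30% ± 0.87 in controls. That distant end held at most 2 reads in any C2C12 group. These differences in end use are descriptions and were not tested, and cell line and experiment cannot be told apart in them.

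The 2 main Col1a2 ends of NIH3T3 were then set against each other after siPcf11 and in controls. With both libraries of each group, no test of their use passed its threshold. The end at chr6:4490704 held 29.8% (95% Wilson interval 27.0% to 32.8%) and 18.2% (16.3% to 20.2%) of reads after siPcf11, against 45.2% (42.7% to 47.7%) and 43.2% (40.7% to 45.8%) in controls. The end at chr6:4491013 held 47.3% and 59.8% after siPcf11, against 32.2% and 34.7% in controls. Both siPcf11 libraries thus lay below both controls at the upstream end and above them at the downstream end. Distal use, the downstream share of these 2 ends, averaged 69.0% ± 10.9 after siPcf11 and 43.0% ± 2.1 in controls (SD, n = 2 each; exact two-sided permutation p = 0.3333, the smallest that 2 against 2 allows). In edgeR's test of site use across all sites, 0.0283% of 17682 sites were called and none of the 19 tested sites of the 5 genes was; 3 had an unadjusted p under 0.05. The site at chr6:4490704 had a change in use of -0.92 log2 units (adjusted p = 0.371) and chr6:4491013 one of 0.68 (adjusted p = 0.635). Without siPcf11 library 1, chr6:4490704 stood at -1.30 and chr6:4491013 at 0.83. Without siPcf11 library 2, chr6:4490704 stood at -0.58 and chr6:4491013 at 0.50. Each of these fits left 1 siPcf11 library, so only the size of the change is given and no call is read from it.

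Col1a1 in NIH3T3 also had an end 1140 nt upstream of the main one, at chr11:94813211. It held 19.5% and 8.32% of reads after siPcf11, against 14.0% and 18.1% in controls, so the groups overlapped. Distal use averaged 85.9% ± 7.9 after siPcf11 and 83.6% ± 2.9 in controls (SD, n = 2 each; exact permutation p = 1.0). In C2C12 this end was rare, at 6 of 5122 reads in differentiated cells and 1 of 626 in proliferating cells.

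**Figure D3:**
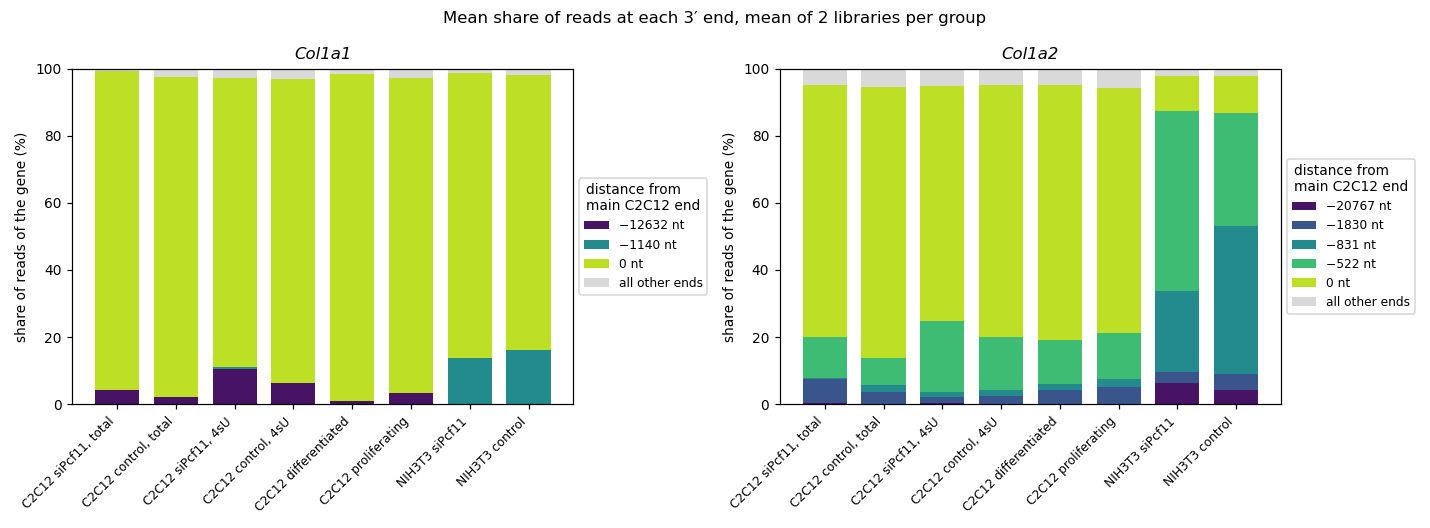
Mean share (%, over 2 libraries) of reads of Col1a1 and Col1a2 at each 3′ end that held at least 5% in some group, by distance in nt from the main C2C12 end, for C2C12 and NIH3T3 groups. The 831 nt upstream end of Col1a2 held 29.8% (library 1) and 18.2% (library 2) after siPcf11, against 45.2% and 43.2% in NIH3T3 controls.

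Within C2C12, Col1a1 had an end far inside its window, at chr11:94801719, 12632 nt upstream of the main end. It held 13.3% (95% Wilson interval 8.11% to 21.1%) and 7.87% (3.86% to 15.4%) of Col1a1 reads in siPcf11 4sU libraries, against 6.30% (3.23% to 11.9%) and 6.52% (3.47% to 11.9%) in control 4sU libraries. In total RNA it held 1.65% and 6.87% after siPcf11, against 3.03% and 1.17% in controls. Its share was thus higher in control 4sU RNA than in control total RNA in both libraries, while siPcf11 and control groups of total RNA overlapped. Over both libraries it held 21 of 194 reads in siPcf11 4sU RNA and 17 of 265 in control 4sU RNA. In total RNA these counts were 11 of 252 and 7 of 336. In edgeR's test of site use after siPcf11, this end was not called. It had changes of 0.74 log2 units in 4sU RNA (adjusted p = 0.674) and 0.98 in total RNA (adjusted p = 0.631). It had no read in NIH3T3, where 0 of 1332 to 2116 reads per library bound the share at 0.181% to 0.288% (upper Wilson limits). Site use in control 4sU against total RNA was called for 0.898% of 25282 sites and for none of the 23 tested sites of the 5 genes, 3 of which had an unadjusted p under 0.05; this site had a change of 1.60 log2 units (adjusted p = 0.480).

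On differentiation the share of that Col1a1 end fell. It held 0.805% and 0.986% of reads in differentiated cells, against 3.02% and 3.60% in proliferating cells. Its change in use was -1.93 log2 units (adjusted p = 0.0030), where 5.68% of 20158 sites were called and 1 of the 27 tested sites of the 5 genes. The share called in the 5 genes was thus not above that over all sites. The level of the end itself was 5.52 CPM in differentiated cells and 2.83 CPM in proliferating cells, so its share fell beside the larger rise of the main end. The call was lost without proliferating library 2 (adjusted p = 0.159). For Col1a2, distal use was 85.1% ± 2.4 in differentiated cells and 84.2% ± 2.7 in proliferating cells (SD, n = 2 each; exact permutation p = 0.6667).

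In C2C12 total RNA after siPcf11, site use was called for 1 of the 23 tested sites of the 5 genes. That share was not above the 6.17% called over all sites. The site was 1 of 4 tested Col3a1 ends downstream of the main end. The end at chr1:45406426, 561 nt downstream, held 25 of 1270 and 38 of 2043 reads after siPcf11, or 1.97% and 1.86%, against 6 of 1452 and 11 of 1522 in controls, or 0.413% and 0.723%. Its change in use was 1.74 log2 units (adjusted p = 0.0037), where 6.17% of 25282 sites were called and 1 of the 23 tested sites of the 5 genes; the call was lost without control library 1 (adjusted p = 0.148). In 4sU RNA the same end held 1.15% and 1.88% after siPcf11, against 0.738% and 0.472% in controls, a change of 1.28 log2 units that was not called (adjusted p = 0.106). There 4.92% of 25282 sites were called and none of the 23, with 3 at an unadjusted p under 0.05. An end 1163 nt downstream had 5, 12 and 17 reads after siPcf11 in C2C12 total RNA, C2C12 4sU RNA and NIH3T3, against 0, 1 and 0 reads in their controls, and was not called in any of them (adjusted p from 0.199 to 0.546). The end 684 nt downstream, the second of Col3a1 in C2C12, had a change in use of 0.15 log2 units in total RNA (adjusted p = 0.896), and the groups overlapped: distal use was 5.62% ± 0.49 after siPcf11 and 4.96% ± 0.78 in control total RNA (SD, n = 2 each; exact permutation p = 0.6667).

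In 4T1, Fn1 had reads scattered upstream of its main end. Ends over 2000 nt upstream together held 8.75% (95% Wilson interval 6.87% to 11.1%) and 10.3% (8.79% to 12.1%) of Fn1 reads in Pcf11-IPAKO libraries, against 3.02% (2.16% to 4.21%) and 5.07% (3.93% to 6.51%) in controls. The means were 9.54% ± 1.11 and 4.04% ± 1.45 (SD, n = 2 each; exact two-sided permutation p = 0.3333). These reads lay at 118 ends in Pcf11-IPAKO cells and 55 in controls, none with more than 10 reads in a library. Sparc had 1 and 4 such upstream reads of 82 in each Pcf11-IPAKO library, against 0 of 80 and 0 of 110 in controls. In no other group did the mean upstream share of Fn1 pass 1.12%. The libraries themselves differed the same way: positions listed with a single read made up 2.70% and 2.93% of all reads in Pcf11-IPAKO libraries, against 0.884% and 1.38% in controls, and the part of this in the Fn1 result was not tested. Site use was called for 0.192% of 21827 sites and for none of the 5 sites of Fn1 that were tested, none of which had an unadjusted p under 0.05.

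**Figure D4:**
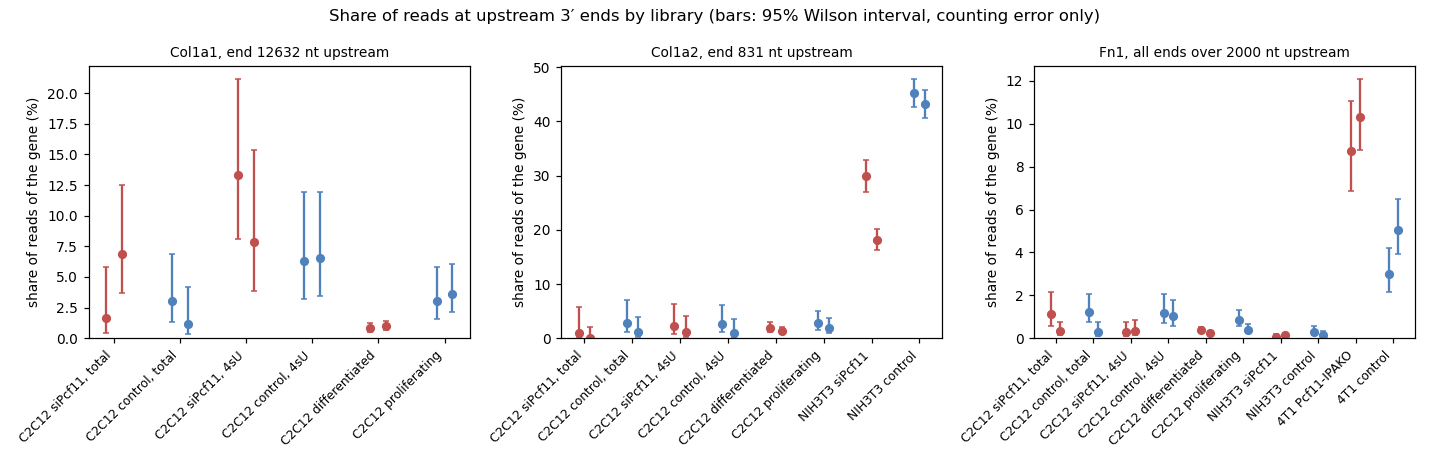
Share (%) of a gene's reads in each library at the Col1a1 end 12632 nt upstream, the Col1a2 end 831 nt upstream and all Fn1 ends over 2000 nt upstream, with 95% Wilson intervals; red marks siPcf11, differentiated or Pcf11-IPAKO cells and blue the group each is set against. Fn1 stood at 8.75% and 10.3% in 4T1 Pcf11-IPAKO libraries, against 3.02% and 5.07% in 4T1 controls.

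Across the 10 group means, log2(CPM + 1) of the collagens and Sparc moved together, with Pearson's r from 0.940 to 0.992 between pairs of them. Fn1 had r from 0.636 to 0.742 with the other 4. These values describe 10 means that share cell lines and sequencing libraries, and the near absence of collagens in 4T1 sets much of their range. Among 6503 features with a mean of at least 20 CPM, the feature most like Col1a1 was chr3:81017953-81018601 (+) with r = 0.994, followed by chr13:89794920-89796629 (-) with 0.984. The first of these was also the second for Col1a2 (r = 0.992), behind chr17:14801007-14804200 (-) with 0.996. Col3a1 was most like chr4:155218203 (+) with 0.989 and chr2:167026277-167028694 (-) with 0.988. Sparc was most like chr18:5774909-5775465 (+) with 0.993 and chr6:84161034-84165166 (+) with 0.989. Fn1 had the lowest values, with 0.970 for chr14:31687899-31694796 (+) and 0.955 for chr17:87396367-87399401 (+). Positions are mm9, and no gene name was given to them.

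RNA-seq of 3T3-L1 preadipocytes added the genes by symbol, with 6992460 counts in the library labelled siPcf11 and 8573956 in the control library. Pcf11 itself had 840 counts (120 CPM) in the library labelled siPcf11, against 939 (110 CPM) in the control library, a log2 ratio of 0.17 (95% counting interval 0.03 to 0.30), so the target gene goes against the label. The 7 listed of 8 fibroblast and preadipocyte markers summed to 7410 CPM in the library labelled siPcf11, against 6566 CPM in the control library, with Cd34 not listed. Markers of other cells were at or near 0 in both libraries: epithelial 0 and 1.28 CPM, endothelial 0 and 0, macrophage 10.7 and 9.68, and muscle 2.15 and 2.22 CPM. With 1 library per group there is no replicate check, and intervals cover counting error only.

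None of the 5 genes passed 1.5-fold in 3T3-L1, where 5.62% of 9143 genes with at least 100 counts over the 2 libraries did. Fn1 had 46513 counts in the library labelled siPcf11, against 47730 in the control library, a log2 ratio of 0.29 (95% counting interval 0.27 to 0.31) after TMM scaling. Col1a2 had 102818 against 117146 counts (log2 ratio 0.14, interval 0.13 to 0.15), and Col3a1 29733 against 36482 (0.03, interval 0.01 to 0.05). Col1a1 had 54613 against 71107 counts (-0.05, interval -0.07 to -0.04) and Sparc 28003 against 37400 (-0.09, interval -0.11 to -0.07). All 5 lay within 0.29 of 0 on the log2 scale, Fn1 being the farthest. Col3a1 turned to -0.00096 with library totals.

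Lists of genes that build and bind this matrix were described by the same ratio. Of 15 other collagens with at least 100 counts, none passed 1.5-fold, with a median log2 ratio of -0.01, beside 0.00163 over all genes. Col4a2 and Col4a1, the chains of basement membrane collagen, had the highest ratios at 0.36 and 0.34, followed by Col18a1 at 0.31. Col5a1 (-0.29), Col5a3 (-0.26) and Col6a1 (-0.24) had the lowest. Of 22 genes of collagen biosynthesis and processing, none passed 1.5-fold, with a median of -0.01. The extremes there were Pcolce2, which enhances procollagen cleavage, at 0.46, and the lysyl hydroxylase Plod2 and the collagen galactosyltransferase Colgalt1, both at -0.43. Loxl1 (0.25), Crtap (0.20) and Sec23a (-0.29) completed the 3 highest and 3 lowest.

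Of 12 collagen and fibronectin receptors, 11 had a ratio above 0, beside 4606 of all 9143 genes, and none passed 1.5-fold; the median was 0.33. The highest were Sdc4 (0.51) and Sdc2 (0.51), which are syndecans, and Itga3 (0.47), an integrin chain, and the lowest were Itgb3 (-0.01), Ddr2 (0.02) and Itgav (0.06). Among 11 matrix proteases and inhibitors with at least 100 counts, 1 passed 1.5-fold and the median was 0.08. It was Mmp11, a matrix metalloprotease, with 167 counts in the library labelled siPcf11, against 133 in the control library (log2 ratio 0.66, interval 0.32 to 0.99). The other lists had no gene past 1.5-fold: 15 other matrix and matricellular proteins had a median of 0.09 and 14 genes of TGF-beta signalling a median of 0.08. In the matrix list Ltbp2 (0.54), Fbln2 (0.43) and Thbs1 (0.41) were highest, and the proteoglycans Dcn (-0.26) and Vcan (-0.22) and the Sparc relative Sparcl1 (-0.16) were lowest. In the signalling list the ligand Tgfb2 (0.39), the inhibitory Smad7 (0.35) and the ligand Tgfb1 (0.33) were highest, and Smad4 (-0.13), Acvr1 (-0.06) and the receptor Tgfbr1 (-0.04) were lowest.

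**Figure D5:**
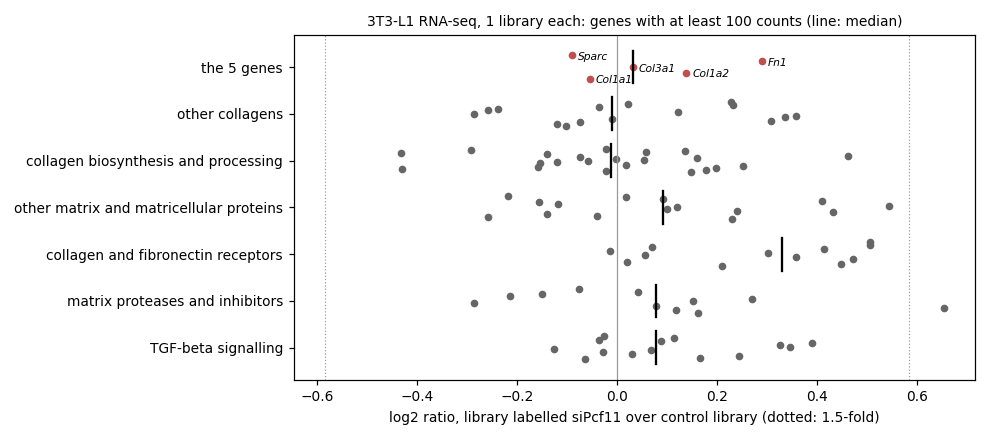
Log2 ratio of the library labelled siPcf11 over the control library in 3T3-L1 RNA-seq, for genes with at least 100 counts, by list; black lines mark list medians and dotted lines 1.5-fold. The 5 genes lie between -0.09 (Sparc) and 0.29 (Fn1), and 1 gene of the protease list lies past 1.5-fold.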

How the data were processed

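The deposited 3′READS files give a whole-number read count per poly(A) site position, and the deposited RNA-seq files a count per gene symbol; the authors left both unnormalized. Cutadapt, Bowtie2 and STAR, without versions or roles, and mm9 are named in the submitters' processing notes; the sources used here do not say how sites were clustered. The lowest count in the RNA-seq files is 5.

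Counts were summed over 5 mm9 windows and, elsewhere, over sites on one strand with gaps of at most 5 kb, using sites with at least 1 CPM in 2 libraries outside the windows. Levels were tested with edgeR 4.0.16 (TMM, filterByExpr with a minimum count of 10, glmQLFit) in R 4.3.3, and site use with diffSpliceDGE, its natural-log coefficients converted to log2. All C2C12 libraries of the siRNA experiment shared a fit. The C2C12 differentiation libraries, the NIH3T3 libraries and the 4T1 libraries were each fitted alone. Comparisons between cell lines used a fit of all 20 libraries with positions. DESeq2 1.42.0 was an alternative. Scripts were checked on simulated data. With 2 libraries per group the smallest exact permutation p is 0.3333. Reads without molecular identifiers are not independent molecules, so intervals cover counting error only. RNA-seq ratios used TMM, and strandedness is not given in the sources used here.

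Members and gene lists were chosen with earlier results of these data known. Named list genes are those past 1.5-fold or otherwise the 3 highest and 3 lowest. Likeness was ranked by Pearson's r over group means. Scaling by library totals shifted all features by over 0.1 log2 units in 7 of the level comparisons, from -0.30 to 0.26. The level of Pcf11 and cell markers in 3′READS libraries were not analysed here, since those files carry no gene names. One gene of the protease list is not reported here and was left out of that list's counts and median.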

Additional observations from a re-analysis of the deposited data

Results flagged for a closer look

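Col3a1, Fn1 and Sparc had responses to siPcf11 that differed between RNA fractions of C2C12, being larger in 4sU RNA than in total RNA by 0.62, 0.65 and 0.62 log2 units in the interaction test. The calls were not kept under other scalings.

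Sparc had mean differences of opposite sign between siPcf11 and control libraries in C2C12 4sU RNA and NIH3T3, with both siPcf11 libraries above both controls in the first (a mean difference of 178 CPM) and below both in the second (a mean difference of -335 CPM). The change in NIH3T3 was not called, and siPcf11 library 1 (1175 CPM) lay close to its controls (1197 and 1189 CPM). The difference between these responses was not tested.

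On the strand opposite Fn1, 19 reads lay in the Fn1 window in 4T1 Pcf11-IPAKO libraries (9 and 10) and none in 4T1 controls. They lay at 6 positions. Elsewhere the opposite strand of that window held 0 to 3 reads per group. In 4T1 the strand opposite Sparc held 2 and 4 reads in Pcf11-IPAKO libraries, against 0 and 2 in controls. The strand opposite Col1a2 held 0 and 0, against 3 and 0. The Pcf11-IPAKO libraries listed 105666 and 203899 positions over the genome, against 53146 and 97285 in controls. The part of this in the Fn1 count was not tested.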

How the results depend on the processing

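Of 1200 values recomputed under an alternative, 1036 kept their direction and their side of the threshold, or for counts stayed within 1.5 times. All 60 single-gene values of differentiation and all 39 of Col3a1, Fn1 and Sparc in C2C12 4sU RNA were among them. The cause of the changes below was not tested. With library totals in place of TMM, log2 changes turned to -0.11 for Col1a2, -0.051 for Fn1 and -0.16 for Sparc after siPcf11 in C2C12 total RNA, to -0.16 for Col1a1 and -0.043 for Col1a2 in 4sU RNA, to -0.063 for Sparc in 4T1, to 0.15 for Col1a1 in NIH3T3 minus C2C12, and to -0.00096 for Col3a1 in 3T3-L1. Without a filter on low counts, Sparc turned to -0.0030 in C2C12 total RNA and -0.0095 in 4T1, and Col1a1 to 0.0039 in NIH3T3 minus C2C12. Sparc in 4T1 was -0.0029 with only sites of at least 1 CPM in 2 libraries. DESeq2's Wald test gave 0.0020 for Col1a1 in NIH3T3 minus C2C12, 22 features and 0 of the 5 genes for the difference between 4sU and total responses, 1618 features and 2 of the 5 genes for control 4sU against total RNA, and 339 features for NIH3T3. DESeq2 size factors and library totals each gave 0 of the 5 genes for the difference between responses. A minimum of 20 counts put 1233 genes of 3T3-L1 past 1.5-fold. Deviations of same-numbered libraries correlated at 0.05 to 0.09, and at 0.39 in 4T1. The C2C12 total RNA libraries are titled input and numbered like the 4sU libraries. Labels do not say whether a number marks a shared culture, and each group has 2 libraries, so the numbers were not used as pairs. With a replicate block the difference between responses had 228 features (146 when treatment and number paired 4sU with total RNA), 4T1 had 1582 features, 130 sites and -0.062 for Sparc, and NIH3T3 had 2 sites; the block changed no call of the 5 genes.

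Leaving out single libraries gave ranges as follows. After siPcf11 in C2C12 total RNA, 1 to 2 of the 5 genes were called, with Col1a1 at -0.16 to 0.13, Col1a2 at -0.14 to 0.39, Fn1 at -0.19 to 0.53 and Sparc at -0.054 to 0.24. In 4sU RNA, Col1a1 ran from -0.010 to 0.17 and Col1a2 from -0.0077 to 0.39. The difference between responses had 0 to 2 genes and 25 to 93 features, with Col1a1 at -0.046 to 0.30 and Col1a2 at -0.18 to 0.35. Control 4sU against total RNA had 2 to 3 genes and 1582 to 2623 features, with Col1a2 at -0.043 to 0.17. NIH3T3 had 0 to 3 genes and 0 to 4999 features, with Sparc at -1.16 to 0.012. In 4T1, Fn1 ran from -0.48 to 0.32 and Sparc from -0.68 to 0.55. NIH3T3 minus C2C12 had 0 to 1 genes and 463 to 2775 features, with Col1a1 at -0.22 to 0.016. Sites called numbered 852 to 1011 in C2C12 total RNA (0 to 1 in the 5 genes), 590 to 661 in 4sU RNA, 55 to 161 in control 4sU against total RNA, 0 to 1811 in NIH3T3 (0 to 5 in the 5 genes), 3 to 37 in 4T1 and 587 to 785 in differentiation (0 to 2 in the 5 genes). Changes in site use ran from -0.0019 to 0.80 for chr6:4491010 and -0.22 to 0.048 for chr6:4491535 in 4sU RNA, from -0.95 to 0.26 for chr11:94813211 and -0.048 to 0.13 for chr11:94814356 in NIH3T3, and from -0.61 to 0.23 for chr6:4489705 and -0.22 to 0.11 for chr6:4491010 in differentiation. A lone remaining library was assumed to vary like the other groups.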
